A study of Mus musculus with 4 samples.

Results

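The genes described here belong to the Notch pathway, and comprise 3 receptors (Notch1, Notch2 and Notch3), 3 ligands (Dll1, Dll4 and Jag1), the DNA-binding effector Rbpj and 3 target genes (Hes1, Hes5 and Hey1). They were picked by name with earlier results of these data known, so their counts set against all genes are descriptive. All 10 were found among the 22558 gene symbols of the deposited tables, each at 1 locus. Whole mouse retinas of 4 kinds were sequenced with 1 library each, namely Fezf2 knockout (KO) retinas at postnatal day 14 (P14), retinas of control littermates labelled wild type at P14, KO retinas at postnatal day 7 (P7) and control littermate retinas at P7. Fezf2 encodes a zinc-finger transcription factor, and the study asked what its loss changes in the developing retina. All mice were on the background that the labels give as C57/BL/6J and were kept under specific pathogen-free conditions with normal feeding. The sources used here give neither the structure of the KO allele nor how many animals each library pools.

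Notch signalling passes between touching cells. A ligand of the Delta-like or Jagged family on one cell binds a Notch receptor on its neighbour, the receptor is cut by an ADAM protease and then by gamma-secretase, and the freed intracellular domain enters the nucleus, where it joins the protein encoded by Rbpj and switches on target genes. Hes and Hey genes, the best known targets, encode basic helix-loop-helix repressors that hold back genes of neuronal differentiation. In the retina the pathway is known for keeping progenitor cells from differentiating and Notch1 for restraining photoreceptor fate, while Hes1 and Hes5 are also known from Mueller glia and Dll4 and Jag1 from blood vessels.

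Expression was given as FPKM, fragment counts scaled to transcript length and to the total of the library, so levels of different genes can be set side by side per length. Each level came with a lower and an upper bound that speak for counting error alone and carry no spread among mice, and a difference is called beyond counting error below where the 2 intervals stayed clear of each other. The widths of the bounds implied about 1.25e+07, 9.31e+06, 1.16e+07 and 1.19e+07 fragments in the KO P14, control P14, KO P7 and control P7 libraries. Fezf2, which checks the labels, was at 0.126 FPKM in KO retinas and 4.02 FPKM in control retinas at P14, and at 0.592 FPKM in KO retinas and 8.32 FPKM in control retinas at P7. Photoreceptor markers, the check of the tissue, summed over 12 genes to 21612, 20330.5, 5611 and 5481 FPKM in the same 4 libraries, and 0 of the 12 were listed at 0. With 1 library per group there was no test between the genotypes at a single age. A limma fit with genotype and age as additive terms used all 4 libraries and has 1 residual degree of freedom, so its p-values lean on a spread shared between genes. On simulated libraries the fit recovered most known folds, but in most simulated sets the share of false calls lay above 0.05. Those sets held far fewer changed genes than were called by age here, and their noise was drawn from the fit itself. They therefore cannot give the error rate of the calls below, and the adjusted p-values of the fit may be too small.

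The Notch genes differed far more between the ages than between the genotypes. Summed over the 3 receptors, the level was 5.50 FPKM in KO retinas and 5.03 FPKM in control retinas at P14, against 20.0 FPKM in KO retinas and 18.1 FPKM in control retinas at P7. The 3 ligands summed to 15.5 FPKM in KO retinas and 13.1 FPKM in control retinas at P14, and to 15.0 FPKM in KO retinas and 13.6 FPKM in control retinas at P7, so the total of these 3 was similar while its make-up was not. Jag2, a ligand outside the 10 genes, is not in that total. It was at 5.66 FPKM in KO retinas and 4.92 FPKM in control retinas at P14. At P7 Jag2 was at 10.004 FPKM in KO retinas and 10.86 FPKM in control retinas, above each of the 3 ligands. The similar total therefore holds for the 3 ligands alone. Jag1 supplied 82.2% of the level of these 3 ligands in KO retinas and 77.4% in control retinas at P14, against 28.6% in KO retinas and 35.4% in control retinas at P7. Among the 3 targets Hes5 supplied 15.5% in KO retinas and 14.4% in control retinas at P14, against 46.8% in KO retinas and 47.6% in control retinas at P7. The library with the higher share of Jag1 or the lower share of Hes5 was therefore always the P14 one, in KO as in control retinas.

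**Figure D1:**
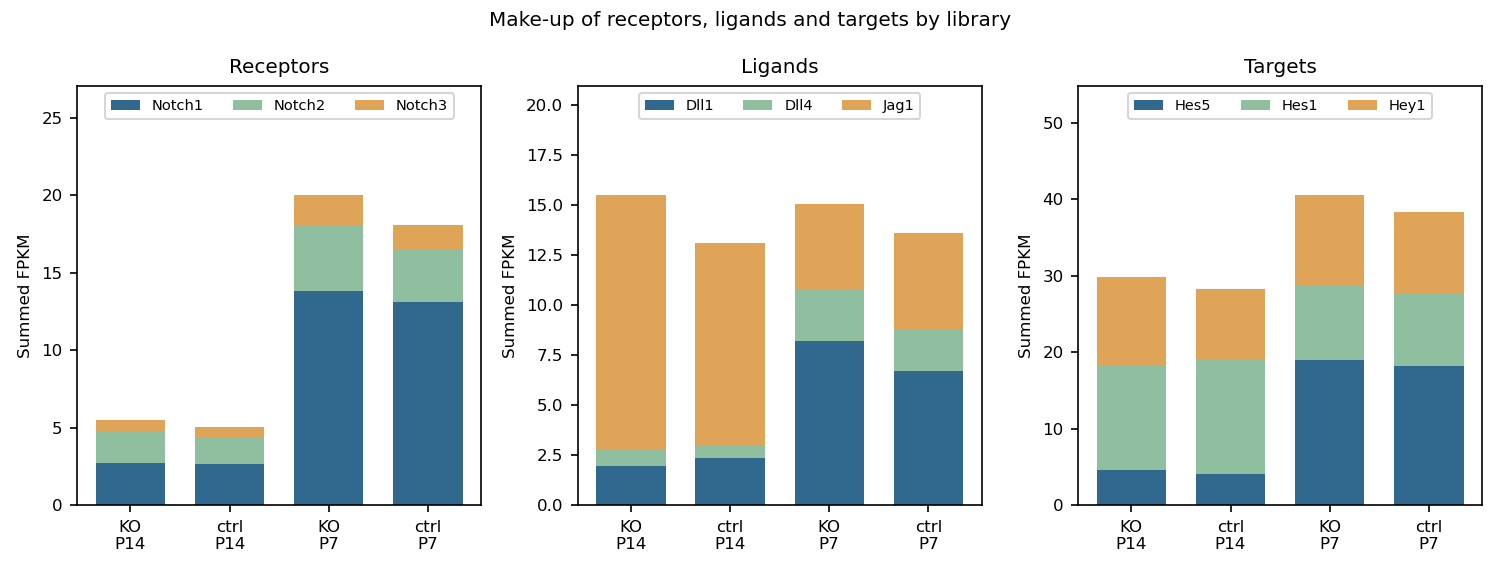
Stacked bars give the FPKM of the receptors, ligands and targets in each of the 4 libraries (KO left of control, labelled ctrl, and P14 left of P7), 1 library per bar. The receptor bars stand at 5.50 and 5.03 FPKM at P14 and at 20.0 and 18.1 FPKM at P7, and Jag1 makes up most of the ligand bar at P14 only.

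Notch1, the receptor with the highest level in each of the 4 libraries, stood at 2.71 FPKM (bounds 2.48 to 2.94) in KO retinas and 2.63 FPKM (2.38 to 2.89) in control retinas at P14, against 13.8 FPKM (13.1 to 14.3) in KO retinas and 13.1 FPKM (12.4 to 13.6) in control retinas at P7. The P7 libraries were high and the P14 libraries low with no overlap, and the bounds of KO and control overlapped at each age. Levels at P7 were 5.09-fold those at P14 in KO retinas and 4.97-fold in the control retina. On log2(FPKM + 1) Notch1 fell with age by 1.97 (SE 0.10, limma adjusted p 1.06e-08). Its difference between the ages ranked at percentile 0.652 of 13043 genes in KO retinas and 0.580 of 13111 genes in the control retina, so fewer than 1 in 100 genes lay further below 0. In the mm9 build Notch1 spans bases 26313422 to 26359342 of chromosome 2.

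Notch2 was at 2.04 FPKM in KO retinas and 1.70 FPKM in control retinas at P14, and at 4.30 FPKM in KO retinas and 3.45 FPKM in control retinas at P7. It was lower at P14 in both genotypes and fell with age by 0.76 on the log2 scale (SE 0.11, limma adjusted p 5.92e-05). At P7 the KO library was above the control library beyond counting error, with bounds of 4.01 to 4.58 FPKM in the KO against 3.20 to 3.70 FPKM in the control library and a log2 difference of 0.25. At P14 the log2 difference was 0.17 and the bounds overlapped, 1.85 to 2.22 FPKM in KO retinas and 1.52 to 1.89 FPKM in the control library. Notch3, a receptor known from pericytes and vascular smooth muscle, was the lowest receptor throughout, at 0.754 FPKM in KO retinas and 0.694 FPKM in control retinas at P14 and at 1.95 FPKM in KO retinas and 1.57 FPKM in control retinas at P7. Its fall with age was 0.68 on the log2 scale (SE 0.12, limma adjusted p 0.000205), and 1.17 with a pseudocount of 0.1 FPKM or 1.04 on a scale of equal library totals. That scale multiplies the levels of the libraries by 2.60 to 2.89 before 1 is added, so the pseudocount also weighs less there. The bounds of Notch3 in KO and control overlapped at each age. Because Notch1 had the larger fall, its share of the receptor level was 49.3% in KO retinas and 52.3% in control retinas at P14, against 68.8% in KO retinas and 72.3% in control retinas at P7. Notch2 lies on chromosome 3 from base 97817461 to 97954290 and Notch3 on chromosome 17 from base 32257838 to 32303797, both in mm9.

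The 2 Delta-like ligands fell and Jag1 rose. Dll1, a ligand of differentiating neural cells, was at 1.96 FPKM (bounds 1.61 to 2.30) in KO retinas and 2.35 FPKM (1.91 to 2.78) in control retinas at P14, against 8.19 FPKM (7.21 to 8.84) in KO retinas and 6.69 FPKM (5.85 to 7.28) in control retinas at P7. Its fall with age was 1.42 on the log2 scale (SE 0.12, limma adjusted p 7.83e-07). The KO library was the lower one at P14 (log2 difference -0.18) and the higher one at P7 (0.26), with overlapping bounds at each age. The level at P7 was 4.17-fold that at P14 in KO retinas and 2.85-fold in the control retina, and whether those falls differ was not testable with 1 library each. Dll4, a ligand known from endothelial tip cells and from newborn retinal neurons, was at 0.803 FPKM in KO retinas and 0.614 FPKM in control retinas at P14, and at 2.56 FPKM in KO retinas and 2.12 FPKM in control retinas at P7. It fell with age by 0.97 (SE 0.11, limma adjusted p 9.31e-06), or by 1.60 with a pseudocount of 0.1 FPKM, and the genotypes overlapped at each age. Its levels at P14 rested on few reads, an implied 68.9 fragments in KO retinas and 37.9 in the control library.

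Jag1, a Jagged-family ligand known from blood vessels, lens and glia, was at 12.8 FPKM (bounds 11.8 to 13.4) in KO retinas and 10.2 FPKM (9.31 to 11.01) in control retinas at P14, against 4.30 FPKM (3.84 to 4.74) in KO retinas and 4.83 FPKM (4.35 to 5.30) in control retinas at P7. Both P14 libraries were above both P7 libraries, and KO was above control at P14 beyond counting error. It rose with age by 1.16 on the log2 scale (SE 0.12, limma adjusted p 3.10e-06), 2.97-fold in KO retinas and 2.11-fold in the control retina. The log2 difference between KO and control was 0.30 at P14 and -0.14 at P7, where the bounds overlapped. Its difference at P14 ranked at percentile 95.9 of 12803 genes, so about 4 in 100 genes were at least as far above the control. The 8 lens and ciliary body markers had a summed level of 7.35 FPKM in KO retinas and 47.96 FPKM in control retinas at P14. At P7 they summed to 29.0 FPKM in KO retinas and 6.30 FPKM in the control library, with 1 of the 8 at 0 in the KO P14 and 1 in the control P7 library. Most of that sum was Optc, at 4.17 FPKM in KO retinas and 39.1 FPKM in control retinas at P14. Of the 3 lens markers at 1 FPKM or more at P14 2 were lower in the KO library beyond counting error and 0 higher, from -2.96 (Optc) to 0.10 (Bfsp2). The 6 astrocyte markers summed to 44.98 FPKM in KO retinas and 34.9 FPKM in control retinas at P14, and to 36.5 FPKM in KO retinas and 29.2 FPKM in control retinas at P7. Of the 5 astrocyte markers at 1 FPKM or more at P14 1 was higher and 1 lower in the KO library beyond counting error, from -0.57 (Gja1) to 1.06 (Gfap). At P7 1 of 6 was higher and 0 lower by the same rule, from -0.0014 (Gfap) to 1.06 (Gja1). The part of both lists in the Jag1 values was not tested. The ligand genes lie on chromosome 17 from base 15504318 to 15512787 (Dll1), chromosome 2 from base 119151520 to 119161402 (Dll4) and chromosome 2 from base 136907187 to 136942256 (Jag1) in mm9.

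Rbpj encodes the DNA-binding protein through which all Notch receptors act and which represses the same targets in their absence. It was at 4.51 FPKM (bounds 4.11 to 4.91) in KO retinas and 5.37 FPKM (4.88 to 5.87) in control retinas at P14, against 13.0 FPKM (12.2 to 13.8) in KO retinas and 11.9 FPKM (11.2 to 12.6) in control retinas at P7. The P7 libraries were high and the P14 libraries low without overlap. Rbpj fell with age by 1.18 (SE 0.11, limma adjusted p 1.41e-06). At P14 the KO level was the lower one (log2 difference -0.21), with bounds that met over a narrow stretch, and they no longer met when each library was rescaled to the same total. At P7 the KO level was the higher one (0.12), with overlap. Rbpj spans bases 53947018 to 54048684 of chromosome 5 in mm9.

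**Figure D2:**
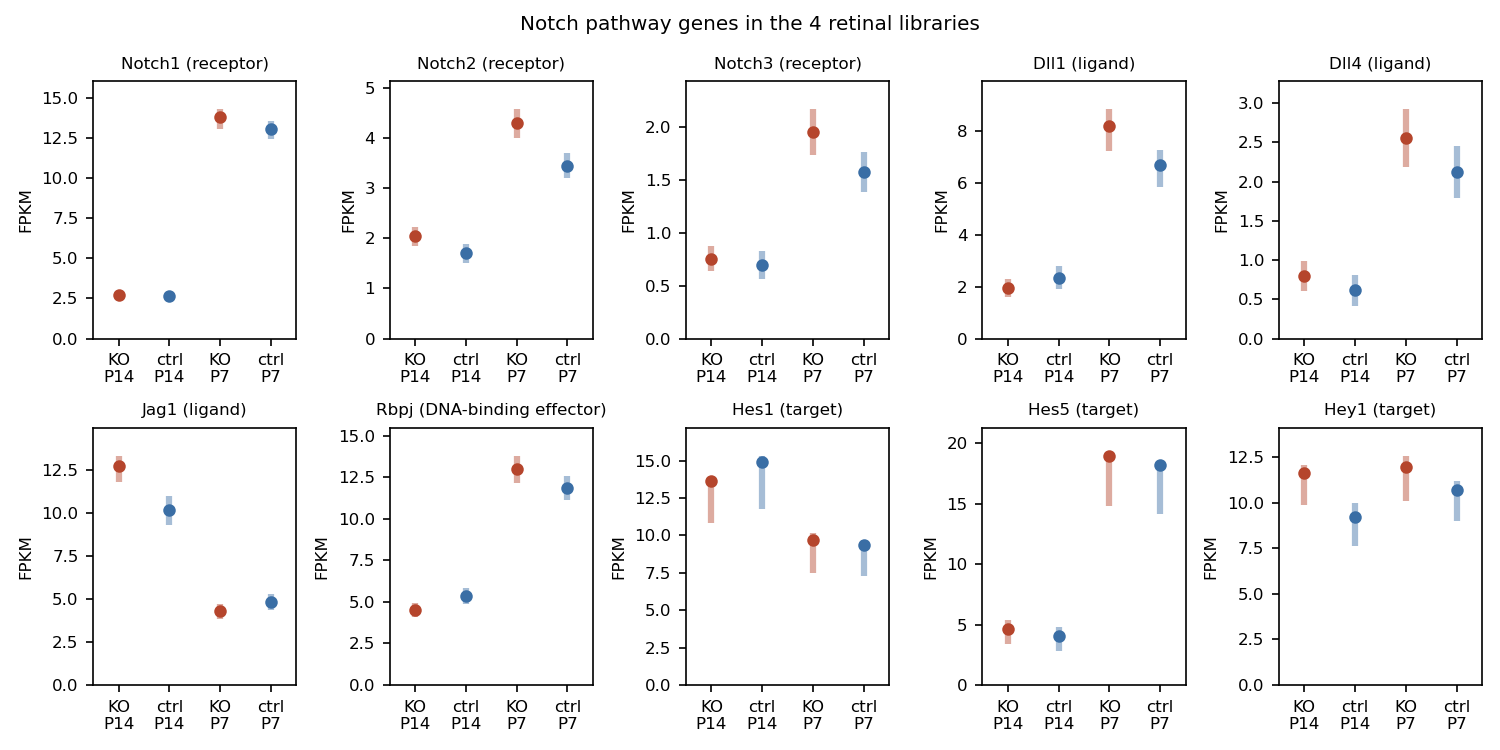
Each panel gives the FPKM of 1 Notch pathway gene in the 4 libraries (KO red, control blue and labelled ctrl, 1 library per point), with bars from the deposited lower to the upper bound. Notch1 sits at 2.71 and 2.63 FPKM at P14 and at 13.8 and 13.1 FPKM at P7, Jag1 and Hes1 are higher at P14, and the points of Hes5 at P7 lie above their own bounds.

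The targets split by age. Hes5 was at 4.64 FPKM (bounds 3.36 to 5.36) in KO retinas and 4.06 FPKM (2.81 to 4.83) in control retinas at P14, against 19.0 FPKM (14.8 to 18.8) in KO retinas and 18.2 FPKM (14.2 to 18.0) in control retinas at P7. At P7 both levels exceeded their own upper bounds, a feature of the deposited values, so bounds were set only against bounds. With or without that, the P7 libraries were high and the P14 libraries low. Hes5 fell with age by 1.87 (SE 0.10, limma adjusted p 1.09e-08), the fall nearest in size to that of Notch1 among the 10 genes. Hes1 was at 13.6 FPKM (10.8 to 13.7) in KO retinas and 14.9 FPKM (11.7 to 15.3) in control retinas at P14, and at 9.67 FPKM (7.52 to 10.2) in KO retinas and 9.37 FPKM (7.30 to 9.70) in control retinas at P7. In contrast to Hes5 it rose with age, by 0.54 (SE 0.10, limma adjusted p 0.000312). The ratio of Hes1 to Hes5 was 2.94 in KO retinas and 3.67 in control retinas at P14, against 0.509 in KO retinas and 0.514 in control retinas at P7, so the order of these 2 repressor genes turned in both genotypes.

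Hey1, a target also known from endothelium, was at 11.6 FPKM (bounds 9.87 to 12.1) in KO retinas and 9.23 FPKM (7.66 to 10.005) in control retinas at P14, and at 11.95 FPKM (10.1 to 12.6) in KO retinas and 10.7 FPKM (9.03 to 11.2) in control retinas at P7. All 4 bounds overlapped one another in pairs of the same age or the same genotype. Its age difference of -0.12 did not pass the test (SE 0.10, limma adjusted p 0.309), and its sign in the KO retina turned from -0.04 to 0.06 with another scaling. The genotype term of Hey1 was 0.23 with an SE of 0.10, which did not pass adjustment over all genes (limma adjusted p 0.517, unadjusted p 0.0400). KO exceeded control by 0.30 at P14 and by 0.15 at P7. In mm9 Hes1 lies on chromosome 16 from base 30065443 to 30067882, Hes5 on chromosome 4 from base 154335032 to 154336480 and Hey1 on chromosome 3 from base 8663359 to 8667038.

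Notch acts on its targets through the Rbpj protein, which binds the core letters TGGGAA, so the 250 bases before the annotated gene starts were searched for that core on both strands and for the longer form GTGGGAA, which holds the core within it. Of the 10 genes 8 had such a window, and Hes1 and Hey1 had none. The core was found at Hes5 and Rbpj. The windows of these 2 genes, both of which fell with age, are printed from RefSeq on the GRCm38.p6 build, plus strand and 5′ to 3′, with the core, and its seventh letter where present, in capitals. They lie at chr4:154960673-154960922 for Hes5 and chr5:53590096-53590345 for the first of the starts listed for Rbpj.
Hes5: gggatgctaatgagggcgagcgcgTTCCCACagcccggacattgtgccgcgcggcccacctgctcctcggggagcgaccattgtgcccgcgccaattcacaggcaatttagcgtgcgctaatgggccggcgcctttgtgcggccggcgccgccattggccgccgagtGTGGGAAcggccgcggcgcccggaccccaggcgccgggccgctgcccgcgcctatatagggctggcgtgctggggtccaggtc
Rbpj: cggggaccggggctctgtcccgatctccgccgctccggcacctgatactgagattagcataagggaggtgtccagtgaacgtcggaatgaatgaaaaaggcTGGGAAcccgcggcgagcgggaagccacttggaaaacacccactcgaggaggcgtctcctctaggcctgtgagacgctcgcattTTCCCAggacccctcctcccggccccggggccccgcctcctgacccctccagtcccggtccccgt
The core of the Hes5 window read TTCCCA, its form on the opposite strand, from 226 to 221 bases before the start and TGGGAA from 82 to 77 bases before it, and both matches were of the longer form. In the Rbpj window the cores stood from 149 to 144 and from 65 to 60 bases before the start, and 0 of them was of the longer form. Among 32851 windows of the same length over all genes 21.6% held the core at least once and 2.77% at least 2 times, and 5.42% held the longer form at least once and 0.161% at least 2 times. Hes5 is therefore among few genes with a pair of the longer form, while a core alone is common. A match is a description of letters, and binding of Rbpj was not measured.

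Set side by side, 9 of the 10 genes passed the age test of the limma fit, 7 lower and 2 higher at P14 (adjusted p 1.06e-08 to 0.000312), against 40.6% of 12933 genes lower and 30.7% higher. At least 1.5-fold lower at P14 on log2(FPKM + 1) were 7 of 10 in the KO retina, where 21.6% of 13043 genes were, and 7 of 10 in the control retina, where 20.8% of 13111 genes were. At least 1.5-fold higher were 1 of 10 in the KO retina (Jag1), against 17.5% of all genes, and 2 of 10 in the control retina (Jag1 and Hes1), against 16.4%. The bounds of the ages did not overlap for 9 of the 10 genes in each genotype, Hey1 being the exception, against 68.4% of genes in the KO retina (29.0% higher, 39.4% lower) and 65.3% in the control retina (27.6% higher, 37.7% lower). The share of all genes at least 1.5-fold apart in either direction was 39.1% in the KO and 37.3% in the control retina. The median log2 difference of the 10 was -0.89 in KO retinas and -0.83 in the control retina, against -0.09 and -0.08 over all genes. Dll4 and Notch3 were above 1 FPKM at P7 only, so they could enter these counts and the limma fit only by being lower at P14. The comparisons in KO and control retinas share no library, and the direction was the same in both for each of the 10 genes, apart from Hey1, whose sign in the KO retina depends on the scaling. Opposite directions were found for 10.4% of 12909 genes, so the agreement of the 10 is near that of all genes.

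**Figure D3:**
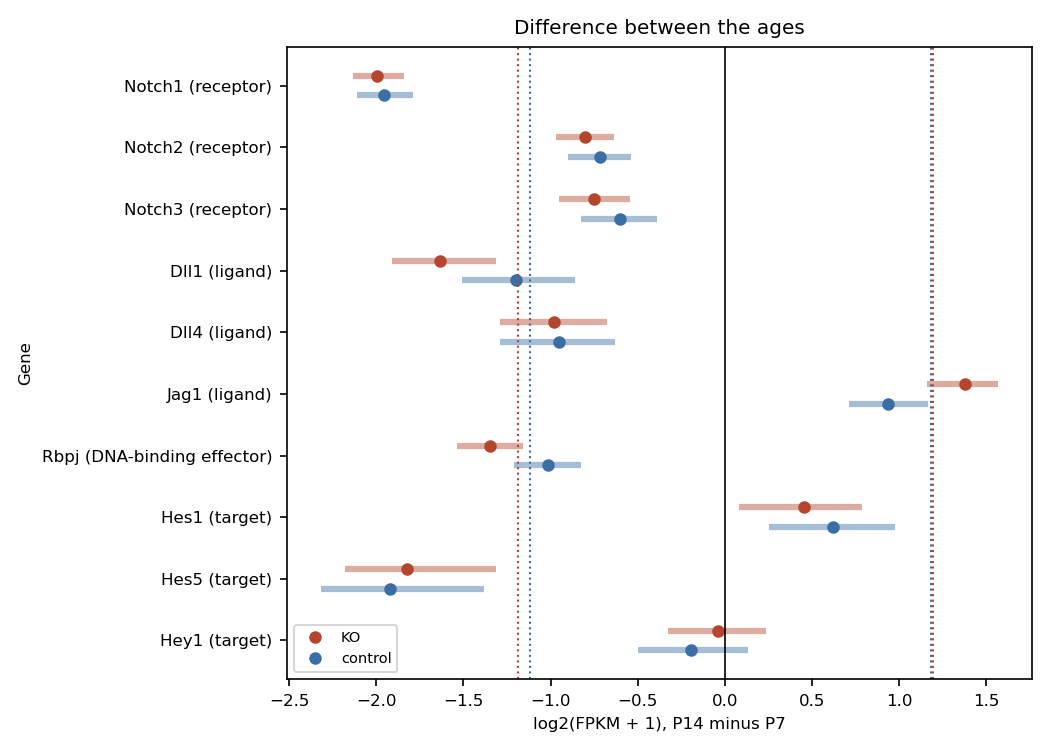
Points give the log2(FPKM + 1) difference P14 minus P7 of each of the 10 genes in KO (red, above) and control retinas (blue, below), with bars from the most extreme combinations of the bounds, and dotted lines at percentiles 5 and 95 of all genes in the same comparison. Notch1 and Hes5 lie left of the lower lines at -1.99 and -1.83 in KO retinas and -1.95 and -1.92 in the control retina. Dll1 also lies left of them (-1.63 in KO retinas, -1.20 in the control retina), and Rbpj does so in KO retinas only (-1.35). Jag1 and Hes1 lie right of 0, with Jag1 right of the upper line in KO retinas only (1.38).

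Between the genotypes 0 of the 10 genes passed the limma test (lowest adjusted p 0.517), with 1, Hey1, at an unadjusted p below 0.05. Over all 12933 genes of that fit 31 (0.240%) had a lower and 0 a higher level with the KO genotype, with 1185 at an unadjusted p below 0.05. At P14 the bounds did not overlap for 1 of the 8 genes at 1 FPKM or more, Jag1, which was higher, against 7.45% of 12803 genes higher, 8.24% lower and 15.7% in either direction. At P7 they did not overlap for 1 of 10, Notch2, also higher, against 7.34% of 12664 genes higher, 6.10% lower and 13.4% in either direction, so the share of the 10 genes is near that of all genes at each age. A difference of 1.5-fold was reached by 0 of the 10 at either age, where 1.47% of all genes reached it at P14 (0.453% higher, 1.02% lower) and 0.987% at P7 (0.379% higher, 0.608% lower). On the log2 scale the differences ran from -0.21 (Rbpj) to 0.30 (Hey1) at P14 and from -0.14 (Jag1) to 0.26 (Dll1) at P7. At P14 5 of the 8 genes at 1 FPKM or more had the higher level in KO retinas and 3 in control retinas (median 0.09, all genes 0.0032). Notch1 was among the first with 0.03 but with -0.01 when each library was rescaled to the same total. At P7 9 of 10 were higher in KO retinas and 1 was not (median 0.13, all genes 0.0074). Over all genes 50.8% were higher in the KO library at P14 and 52.3% at P7. With the same rescaling the differences at P7 were 0.00078 for Hes1, 0.014 for Hes5 and 0.030 for Notch1. Precision limits these comparisons: the bounds on the log2 difference ran from -0.42 to 0.74 for Hes5 at P14 and from -0.27 to 0.38 at P7, so a 1.5-fold higher level of Hes5 in the KO library at P14 lay within counting error. For Notch1, the most deeply counted gene of the 10 at P7, they ran from -0.16 to 0.22 at P14 and from -0.05 to 0.19 at P7.

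**Figure D4:**
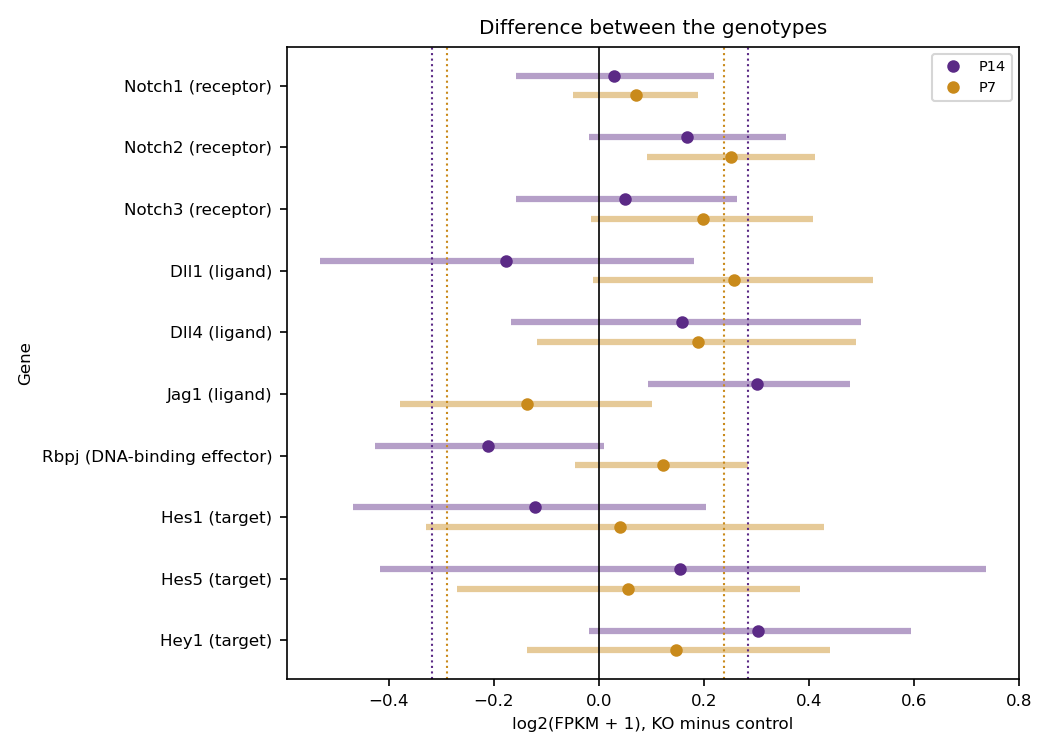
Points give the log2(FPKM + 1) difference KO minus control of each gene at P14 (purple, above) and P7 (ochre, below), with bars from the most extreme combinations of the bounds, and dotted lines at percentiles 5 and 95 of all genes in the same comparison. The bars exclude 0 for Jag1 at P14 (0.30) and Notch2 at P7 (0.25).

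A further 50 genes of the pathway gave the surroundings of these members, and 45 of them reached 1 FPKM at some age. Notch4, Dlk1, Hes2, Hes3 and Hes7 stayed below it in all 4 libraries. By age, 31 of the 45 genes in the limma fit were lower and 4 higher at P14 at an adjusted p below 0.05, against the 40.6% and 30.7% of all genes given above. At least 1.5-fold lower were 24 of 45 in KO retinas and 23 of 45 in the control retina, against 21.6% and 20.8% of all genes. At least 1.5-fold higher were 2 of 45 in KO retinas and 1 of 45 in the control retina, against 17.5% and 16.4%. In the target group Hes6, Heyl and Nrarp had falls among the largest of the 45. Hey2 fell less, with an age difference of -0.31 in KO retinas, where the bounds overlapped, and -0.52 in the control retina. Hes6, a relative of Hes genes that promotes neuronal differentiation, was at 27.1 FPKM in KO retinas and 25.4 FPKM in control retinas at P14. At P7 Hes6 was at 95.1 FPKM in KO retinas and 83.2 FPKM in control retinas. Heyl fell with age by 1.62 and Nrarp, a target that feeds back on the pathway, by 1.54 (limma adjusted p 1.03e-07 and 4.63e-08). Of the other ligands Dll3 fell by 1.58, Jag2 by 0.86 and the Delta-like genes Dlk2 and Dner by 0.77 and 0.64. Heyl, Dll3 and the ubiquitin ligase gene Neurl1b were below 1 FPKM in both P14 libraries and entered the fit only through P7, so they could be called only as lower. The fall of Dll3 was 2.54 with a pseudocount of 0.1 FPKM.

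Most genes of the machinery around the receptors were also lower at P14, and the falls named next had limma adjusted p-values of at most 0.000205. Among genes of receptor cleavage, the protease genes Adam10 and Furin fell by 0.72 and 1.11, and the gamma-secretase genes Ncstn, Aph1a and Aph1b fell by 1.06, 0.75 and 0.66. Psen2, which encodes a subunit of the same enzyme, differed by -0.05 and did not pass the test (limma adjusted p 0.656). Of the genes that act on trafficking and turnover, Dtx1 fell by 1.49, Dtx4 by 1.25, Numbl by 0.85 and Fbxw7 by 0.60. Nuclear cofactors that fell included the corepressor gene Spen (0.98), the acetyltransferase gene Ep300 (1.24) and the coactivator genes Maml1 (0.995) and Maml3 (0.64). The ubiquitin ligase gene Mib1, which primes ligands, fell by 0.96, and the Fringe gene Mfng, which modifies receptors, by 1.08. Against this, Mib2 rose by 0.77, the receptor glycosylation gene Pofut1 by 0.68, Numb, an inhibitor of Notch, by 0.45 and the gamma-secretase gene Psenen by 0.29 (limma adjusted p 1.89e-05, 0.000166, 0.00183 and 0.00700). Psenen no longer passed on the scale of equal library totals (0.19, limma adjusted p 0.0635).

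**Figure D5:**
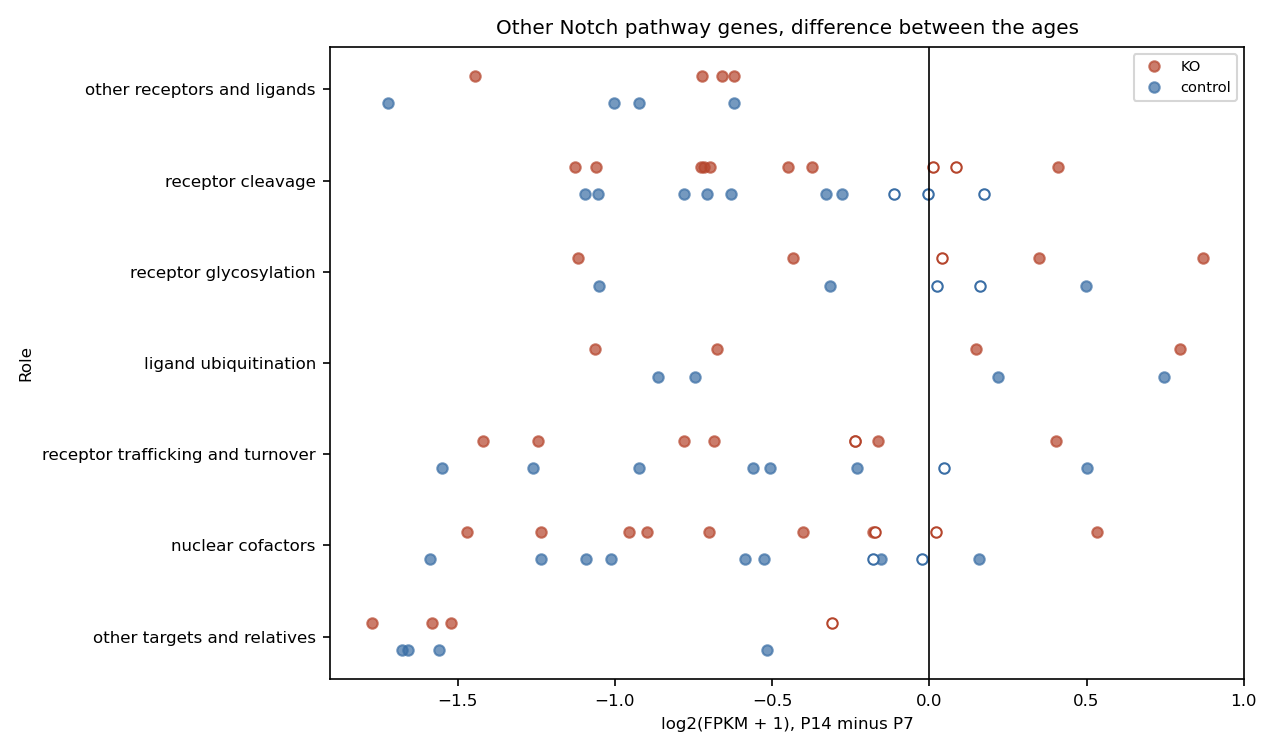
Points give the log2(FPKM + 1) difference P14 minus P7 of the 45 other pathway genes at 1 FPKM or more, by role, in KO (red, above) and control retinas (blue, below). Filled points are genes whose bounds did not overlap between the ages and open points those that overlapped. The other targets and relatives in the lowest row all lie left of 0, and Mib2 and Pofut1 stand furthest right in the KO retina at 0.80 and 0.87.

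Between the genotypes 0 of these 45 genes passed the limma test (lowest adjusted p 0.488), with 1 at an unadjusted p below 0.05. Beyond counting error 5 of 42 were higher in the KO library at P14 and 0 of 42 lower, and at P7 3 of 45 were higher and 0 lower, against the shares of all genes given above. Among those higher at P14 was Maml1, at 5.93 FPKM in KO retinas and 4.80 FPKM in the control library. Psenen (log2 difference 0.32), Hdac1 (0.29) and Ctbp1 (0.18) were also among them. Those at P7 included Hes6 (0.19) and Furin (0.17). The FPKM of Hes6 and Psenen lay above their own upper bounds in each of the 4 libraries.

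Cell type markers were set beside these values, since in whole retina fewer cells of a type and less RNA per cell cannot be told apart. Of the 8 progenitor and cell cycle markers at 1 FPKM or more in each age comparison, 7 were at least 1.5-fold lower at P14 in both genotypes, and the 12 markers summed to 180 FPKM in KO retinas and 201 FPKM in control retinas at P14, against 430 FPKM in KO retinas and 443 FPKM in control retinas at P7. Pcna, a gene of DNA replication, had the highest age difference of the list, 0.43 in KO retinas and 0.27 in the control retina. The 12 Mueller glia markers summed to 2369 FPKM in KO retinas and 2301 FPKM in control retinas at P14, against 905 FPKM in KO retinas and 879 FPKM in control retinas at P7. Of these, 7 were higher and 5 lower at P14 beyond counting error in each genotype, from -0.66 (Lhx2) to 3.18 (Aqp4) in KO retinas and from -0.76 (Sox9) to 3.19 (Aqp4) in the control retina. The 10 endothelial markers summed to 78.9 FPKM in KO retinas and 76.1 FPKM in control retinas at P14, against 123 FPKM in KO retinas and 122 FPKM in control retinas at P7, with age differences from -1.86 (Kdr) to 0.80 (Esam) in KO retinas and from -1.65 to 1.16 for the same genes in the control retina. The 8 pericyte and smooth muscle markers summed to 48.1 FPKM in KO retinas and 48.5 FPKM in control retinas at P14. At P7 they summed to 43.5 FPKM in KO retinas and 43.1 FPKM in control retinas. Of the 5 at 1 FPKM or more, 2 were higher and 3 lower at P14 in each genotype. Their age differences ran from -0.52 (Acta2) to 0.81 (Kcnj8) in KO retinas and from -0.45 (Pdgfrb) to 0.41 (Rgs5) in the control retina. Notch3 was lower at P14. The photoreceptor sums given above were also higher at P14. The part of these cell types in the values of the Notch genes was not tested.

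The same lists were also compared between the genotypes by their summed levels. Mueller glia markers stood at a ratio of KO to control of 1.03 at each age, with single genes from -0.46 (Abca8a) to 0.38 (Vim) at P14 and from -0.19 (Sox9) to 0.23 (Sox2) at P7. Endothelial markers stood at 1.04 at P14 and 1.01 at P7, with genes from -0.31 (Egfl7) to 0.48 (Cldn5) at P14 and from -0.14 (Eng) to 0.38 (Cdh5) at P7. Progenitor and cell cycle markers stood at 0.893 at P14 and 0.970 at P7, and those of pericytes and smooth muscle at 0.993 and 1.01. Pigment epithelium markers differed more, with 8 genes that summed to 104 FPKM in KO retinas and 148 FPKM in control retinas at P14 and to 87.1 FPKM in KO retinas and 76.9 FPKM in control retinas at P7, and 5 of 7 at P14 were lower in the KO library beyond counting error. The part of these lists in the genotype differences was not tested.

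Genes with a time course most like the average of the 10 were found by the distance between centred log2(FPKM + 1) values over the 4 libraries, among 10476 genes at 2 FPKM or more in each. Among the 5 nearest were Cpeb4 (distance 0.0243), BC031781 (0.0268), Zfp507 (0.0272) and Map3k11 (0.0276). Cpeb4 was at 14.6 FPKM in KO retinas and 13.98 FPKM in control retinas at P14, against 24.8 FPKM in KO retinas and 23.0 FPKM in control retinas at P7. Of the members Notch3 (0.0755) and Notch2 (0.123) lay nearest to the average and Jag1 (1.90) farthest from it, so the average describes few of the 10 closely. With 4 libraries, of which pairs share an age, such likeness is a description of the age difference and little else.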

How the data were processed

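Whole-retina RNA of 4 mouse groups (KO and control, P14 and P7) was sequenced with 1 library each. Per the labels' protocols, total RNA was reverse-transcribed with random primers, cDNA of 200 bp was amplified over 15 PCR cycles and read as 36-base single ends. No strand marking is named, so reads of antisense or overlapping genes are not separated. Per the file headers, the authors deposited FPKM with a lower and an upper bound. The submitters' processing notes name the mm9 build and the tools Cufflinks 2.1.1, TopHat2 2.0.8b and CASAVA 1.8.2, and neither annotation nor options are given. The files hold no counts, and depth was taken from the bounds as 2 SD of counting error on each side. Amplified reads are not independent molecules, so bounds cover counting error only.

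Loci of one symbol were summed, 16 symbols with a failed level were left out, and 741 symbols of small RNAs or loci under 300 bases stayed out of counts over all genes. Locus starts in the files count from 0 (end minus start equals the RefSeq gene length for 8207 of 20332 genes, and end minus start plus 1 for 533) and are given here counted from 1. Differences are on the scale log2(FPKM + 1), where changes of low genes come out too small, at 1 FPKM or more in either library, with a rule of 1.5-fold. Genotype and age were fitted together with limma 3.58.1 in R 4.3.3 where 2 or more libraries reached 1 FPKM, using a variance trend (11.04 prior degrees of freedom) and Benjamini-Hochberg adjustment over 12933 genes. Each group is 1 library, so p-values measure the spread left by additivity. On simulated data the fit recovered most known folds, with a share of false calls above the threshold in most sets. The simulated sets differ from the data in how many genes change, so they do not give the error rate here. Calls near the threshold are uncertain. The members and lists were chosen with earlier results of these data known. Named were all 10 members, other pathway genes apart beyond counting error between genotypes or 1.5-fold between ages, the extremes of the marker lists that a result is set beside and the 5 most alike genes, of which some are not reported here. Numb, Psen2, Hey2, Lfng and Hes7 and the genes below 1 FPKM were named after their values were seen. Alternatives were a pseudocount of 0.1 FPKM, rescaling to equal totals without small RNAs (TPM scale), median ratio scaling, no floor or filter, small RNAs kept and no variance trend. Microglia, astrocyte and bipolar markers were also fixed: their sums at P14 were 23.5, 44.98 and 221 FPKM in KO retinas and 26.2, 34.9 and 245 FPKM in the control library, and at P7 48.3, 36.5 and 252 FPKM in KO retinas and 49.4, 29.2 and 241 FPKM in the control library.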

Additional observations from a re-analysis of the deposited data

Results flagged for a closer look

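For 4 of the 10 genes KO and control differed in opposite directions at the ages. The log2 difference between KO and control at P14 minus that at P7 was 0.44 for Jag1 (0.30 at P14, -0.14 at P7), -0.43 for Dll1 (-0.18 and 0.26), -0.33 for Rbpj (-0.21 and 0.12) and -0.16 for Hes1 (-0.12 and 0.04). Jag1 at P14 was the 1 of these 8 values beyond counting error. With 1 library per group these differences were not tested. Among 12222 genes at 1 FPKM or more in a library of each age 45.2% also had opposite directions at the ages. Of the 10 genes 8 reached that level at P14, among them these 4.

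Among the other pathway genes named, the same quantity was 0.56 for Hdac1 (0.29 and -0.27), 0.37 for Pofut1, 0.30 for Dlk2, 0.28 for Jag2, 0.28 for Dll3, 0.0766 for Heyl, 0.0641 for Aph1a, 0.0503 for Mib2 and 0.0356 for Nrarp. It was -0.20 for Mib1, -0.18 for Fbxw7, -0.0646 for Mfng and -0.0211 for Adam10. Hdac1 also went in opposite directions with age, 0.53 in KO retinas and -0.02 in the control retina, a difference of 0.56 from the same 4 values, where 10.4% of 12909 genes did so. None of these differences was tested.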

How the results depend on the processing

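Of 32 recomputed counts of the 10 genes, 31 stayed within 1.5 times the value given. The exception was the number with non-overlapping bounds between KO and control at P14, which was 2 on the TPM scale, with Jag1 higher and Rbpj lower in the KO library. Before that rescaling the bounds of Rbpj met only from 4.88 to 4.91 FPKM. The rescaling multiplied the KO P14 library by 2.60 and the control P14 library by 2.70. At the 1.5-fold rule the control retina had 8 genes on the TPM scale, where Hes1 no longer reached it, and 8 with median ratio scaling, where Notch3 did not. All 120 limma terms of single genes kept their direction if called and their side of the threshold under the 6 alternatives of the fit. The highest adjusted p of the 9 genes that passed the age test was 0.0114 (limma, Hes1), and the lowest of any genotype term was 0.499 (Hey1). Of 120 single log2 differences 19 left the range their bounds allow, all of them falls with age that became larger with a pseudocount of 0.1 FPKM or on the TPM scale, and 0 called ones turned. The TPM scale multiplies levels by 2.60 to 2.89 before 1 is added, so both settings lower the weight of the pseudocount. The uncalled difference of Notch1 between KO and control at P14 turned to -0.01 on the TPM scale. Median ratio scaling moved the median age difference of all genes from -0.08 to 0.02 in the control retina.

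No paired analysis was possible because the labels carry no replicate numbers and each group has 1 library; the controls are named as littermates, and the additive fit sets the genotypes against each other within each age. Leaving out a library leaves the additive fit without residual degrees of freedom, so no such test was run. Depth limits the low genes, Dll4 and Hes5 at P14 above all, and the files do not show the spread between animals.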

Other observations

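The Rbpj core was also looked up in the other pathway genes. Of 50 such genes 38 had a promoter window, and 10 of their 50 windows held the core, near the 21.6% of all windows. The longer form was found once each at Psen2, Lfng, Spen, Hes7 and Hey2, of which Hes7 and Hey2 are relatives of the target genes. Hey2 was at 5.58 FPKM in KO retinas and 4.66 FPKM in control retinas at P14, and at 7.16 FPKM in KO retinas and 7.10 FPKM in control retinas at P7, while Hes7 stayed below 1 FPKM.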
